A study of Mus musculus with 24 samples.

Results

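The 10 genes Dnmt3a, Tet2, Idh2, Asxl1, Sf3b1, Srsf2, U2af1, Jak2, Gnb1 and Cbl are mouse counterparts of genes recurrently mutated in clonal hematopoiesis, and they were taken as a list of names, with no threshold on a measured value. Earlier results from these libraries were known when the list was chosen. All 10 were found among the 55414 genes of the count tables. The series holds 24 RNA-seq libraries of bone marrow cells from C57BL6/J mice, WT or Srcap mutant. Per its title it asks how Srcap mutations relate to clonal hematopoiesis, so the 10 genes are read here as transcripts in Srcap-mutant and WT blood cells, not as mutated genes. Hematopoietic stem and progenitor cells (HSPCs) of each genotype came from untreated mice, from mice 12 hours after intraperitoneal doxorubicin (a DNA-damaging chemotherapy), from a transplant at 2 weeks, or from a competitive transplant at 20 weeks, in which donor cells share the recipient with competitor cells. Cells labelled as bone marrow B cells and T cells of each genotype were taken 2 weeks after transplantation. Each of the 12 groups has 2 libraries. The labels say of the allele only that it is a Srcap mutant, and the file headers add the word het for the untreated, doxorubicin and 20-week HSPCs. The sources used here do not state the age of the mice or the recipients. Nothing says whether the 2 libraries of a group came from separate animals, so the p-values measure the spread between these libraries only.

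Clonal hematopoiesis is the expansion of blood cells that descend from a single mutated stem cell. The genes that carry such mutations act at a few steps of gene control. Dnmt3a places new methyl groups on cytosine, Tet2 oxidises them as a step of their removal, and Idh2 is a mitochondrial isocitrate dehydrogenase whose product, 2-oxoglutarate, is a cosubstrate of the TET enzymes. Asxl1 encodes a partner of the deubiquitinase Bap1, which acts on histone H2A. Sf3b1, U2af1 and Srsf2 encode splicing factors that recognise the branch point, the 3′ splice site and exonic enhancers. Jak2 is the kinase of several cytokine receptors, Gnb1 is a beta subunit of heterotrimeric G proteins, and Cbl is a ubiquitin ligase that turns off receptor tyrosine kinase signalling. Srcap is the ATPase of a complex that exchanges histone H2A.Z into chromatin, often at promoters.

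The promoters of 4 of the 10 genes (Idh2, Dnmt3a, Tet2 and Cbl) are shown as a description, because H2A.Z and DNA methylation both act at such sequences. The RNA results below do not rest on them. The RefSeq promoter table (build GRCm38.p6, 250 bases before to 50 bases after the annotated start) matched all 10 genes with 13 starts. The lines below give, 5′ to 3′ on the gene's own strand and with every CG dinucleotide in capitals, Idh2 at chr7:80115301-80115600 (minus strand), the first Dnmt3a start at chr12:3806730-3807029 (plus strand), Tet2 at chr3:133544341-133544640 (minus strand) and Cbl at chr9:44233997-44234296 (minus strand).
Idh2: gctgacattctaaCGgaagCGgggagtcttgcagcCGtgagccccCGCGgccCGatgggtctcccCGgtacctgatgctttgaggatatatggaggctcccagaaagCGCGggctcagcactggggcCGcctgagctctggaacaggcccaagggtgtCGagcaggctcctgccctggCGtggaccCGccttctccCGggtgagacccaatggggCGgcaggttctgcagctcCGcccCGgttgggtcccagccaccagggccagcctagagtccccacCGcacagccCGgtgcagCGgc
Dnmt3a: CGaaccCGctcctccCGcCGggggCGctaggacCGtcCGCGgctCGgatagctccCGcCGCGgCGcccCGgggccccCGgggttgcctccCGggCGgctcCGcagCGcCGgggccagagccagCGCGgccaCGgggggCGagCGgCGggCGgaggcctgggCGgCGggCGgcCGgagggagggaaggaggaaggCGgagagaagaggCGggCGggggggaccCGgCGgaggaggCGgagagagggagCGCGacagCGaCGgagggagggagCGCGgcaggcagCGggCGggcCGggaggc
Tet2: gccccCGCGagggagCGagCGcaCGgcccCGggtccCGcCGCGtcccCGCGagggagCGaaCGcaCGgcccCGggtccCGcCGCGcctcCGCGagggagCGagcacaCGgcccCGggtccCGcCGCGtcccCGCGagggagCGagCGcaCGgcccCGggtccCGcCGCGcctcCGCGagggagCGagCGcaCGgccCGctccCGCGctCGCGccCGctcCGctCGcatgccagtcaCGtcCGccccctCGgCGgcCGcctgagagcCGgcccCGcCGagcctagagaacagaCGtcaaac
Cbl: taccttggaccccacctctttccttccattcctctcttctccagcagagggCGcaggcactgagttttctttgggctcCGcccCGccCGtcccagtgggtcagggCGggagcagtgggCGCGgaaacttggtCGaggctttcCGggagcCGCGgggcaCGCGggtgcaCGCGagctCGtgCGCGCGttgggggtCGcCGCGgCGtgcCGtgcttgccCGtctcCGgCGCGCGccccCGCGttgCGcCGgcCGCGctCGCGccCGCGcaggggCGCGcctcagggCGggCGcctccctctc
These windows hold 20 CG dinucleotides in Idh2, 46 in Dnmt3a, 57 in Tet2 and 43 in Cbl. Over 32851 promoters of the table the median was 7, with quartiles of 3 and 20, and the 13 starts of the 10 genes ran from 13 to 57. The GC box GGGCGG, searched on both strands, was present in 13 of the 13, against 35.7% of all promoters. The letters TATAAA and TTGCNNAA, searched likewise, each occurred in 1 of the 13, that of Srsf2, against 13.6% and 10.8% of all promoters. CCAAT occurred in 4 of the 13 and CACGTG in 1, against 37.4% and 7.15%. The 13 windows are not independent, since the 2 of U2af1 overlap, as do the first 2 of Dnmt3a. All promoters were not matched to the 13 for CG content, so these shares are a description. The libraries measure RNA, so they hold no value for methylation or H2A.Z at these windows.

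Levels are given as CPM, counts scaled to the same total in each library, or as RPKM, CPM per kilobase of annotated exons, where genes are compared with each other. Library totals ran from 26369992 to 78432483 counts, and the 10 genes had between 924 and 51325 counts in a library. Differences are log2 fold changes ± SE from edgeR after TMM scaling, which sets most genes to no change. A gene was called where its Benjamini-Hochberg adjusted p, taken over all genes tested, was under 0.05. All 10 genes passed the filter on low counts in each comparison. Srcap itself ran from 2.83 CPM in mutant replicate 1 at 20 weeks to 20.3 CPM in WT B cells and was not called between genotypes in any of the 6 classes of cell and condition.

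The cell labels did not all hold. The 4 libraries labelled T cells carried almost no T cell RNA, with Cd3e at 0.0883 to 1.56 CPM. The 10 T cell markers together took 0.00203% to 0.00299% of their counts. Of this list Cd3d (7.44 to 8.76 CPM) and Cd2 (6.68 to 10.6 CPM) were low but above HSPCs at 2 weeks. Those held 0.203 to 2.49 CPM of Cd3d and 0.801 to 2.05 CPM of Cd2. Neutrophil markers took 13.5% to 15.5% of the counts of the libraries labelled T cells, with S100a9 at 50110 to 62110 CPM. Monocyte and macrophage markers took 1.81% to 2.04%. Mpo of the neutrophil list was lower than in HSPCs at 2 weeks (505 to 777 against 2206 to 5257 CPM). Median Elane was lower too (244 against 364 CPM). These 4 are called the libraries labelled T cells. In the libraries labelled B cells most B cell markers were higher than in HSPCs of the same time, such as Cd79a at 1033 to 1352 CPM against 48.6 to 149 CPM. Vpreb1 of the same list went the other way, with a median of 65.15 CPM against 95.97 CPM. B cell markers took 0.750% to 0.999% of the counts of these libraries, erythroid markers 0.617% to 1.64% and neutrophil markers 0.360% to 1.28%. In HSPCs, Kit ran from 311 CPM upward, but immunoglobulin genes with Jchain took 16.9% to 26.7% of the counts at 20 weeks, against 3.66% to 6.22% in untreated HSPCs and 0.845% to 1.86% at 2 weeks. WT untreated replicate 1 held 2.36% neutrophil RNA.

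Per length, the splicing factor Srsf2 was the most abundant of the 10 in every HSPC condition and in B cells, with class means from 82.3 RPKM at 20 weeks to 172 RPKM after doxorubicin. Idh2 and Gnb1 followed in each HSPC condition, at 73.3 ± 4.22 and 69.2 ± 3.44 RPKM in untreated HSPCs (SD, n = 4), where their ranges overlapped. Dnmt3a and Tet2, which act in opposite directions on DNA methylation, were the least abundant per length in all 6 classes. That place rests on the longest annotated exons of the 10 (16.6 and 16.9 kb). In mean CPM, Idh2 (32.8) was the lowest in the libraries labelled T cells, and Jak2 (80.5) lay below Dnmt3a (106) in B cells. Untreated HSPCs held 7.18 ± 0.403 RPKM of Dnmt3a and 2.95 ± 0.133 RPKM of Tet2 (SD, n = 4). In the libraries labelled T cells the order changed: Gnb1 (60.4 RPKM), Srsf2 (58.8) and Sf3b1 (50.8) led, Cbl (43.5) stood next, Idh2 (12.7) fell to the eighth place, and Tet2 (5.01) stood above Dnmt3a (2.15).

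**Figure D1:**
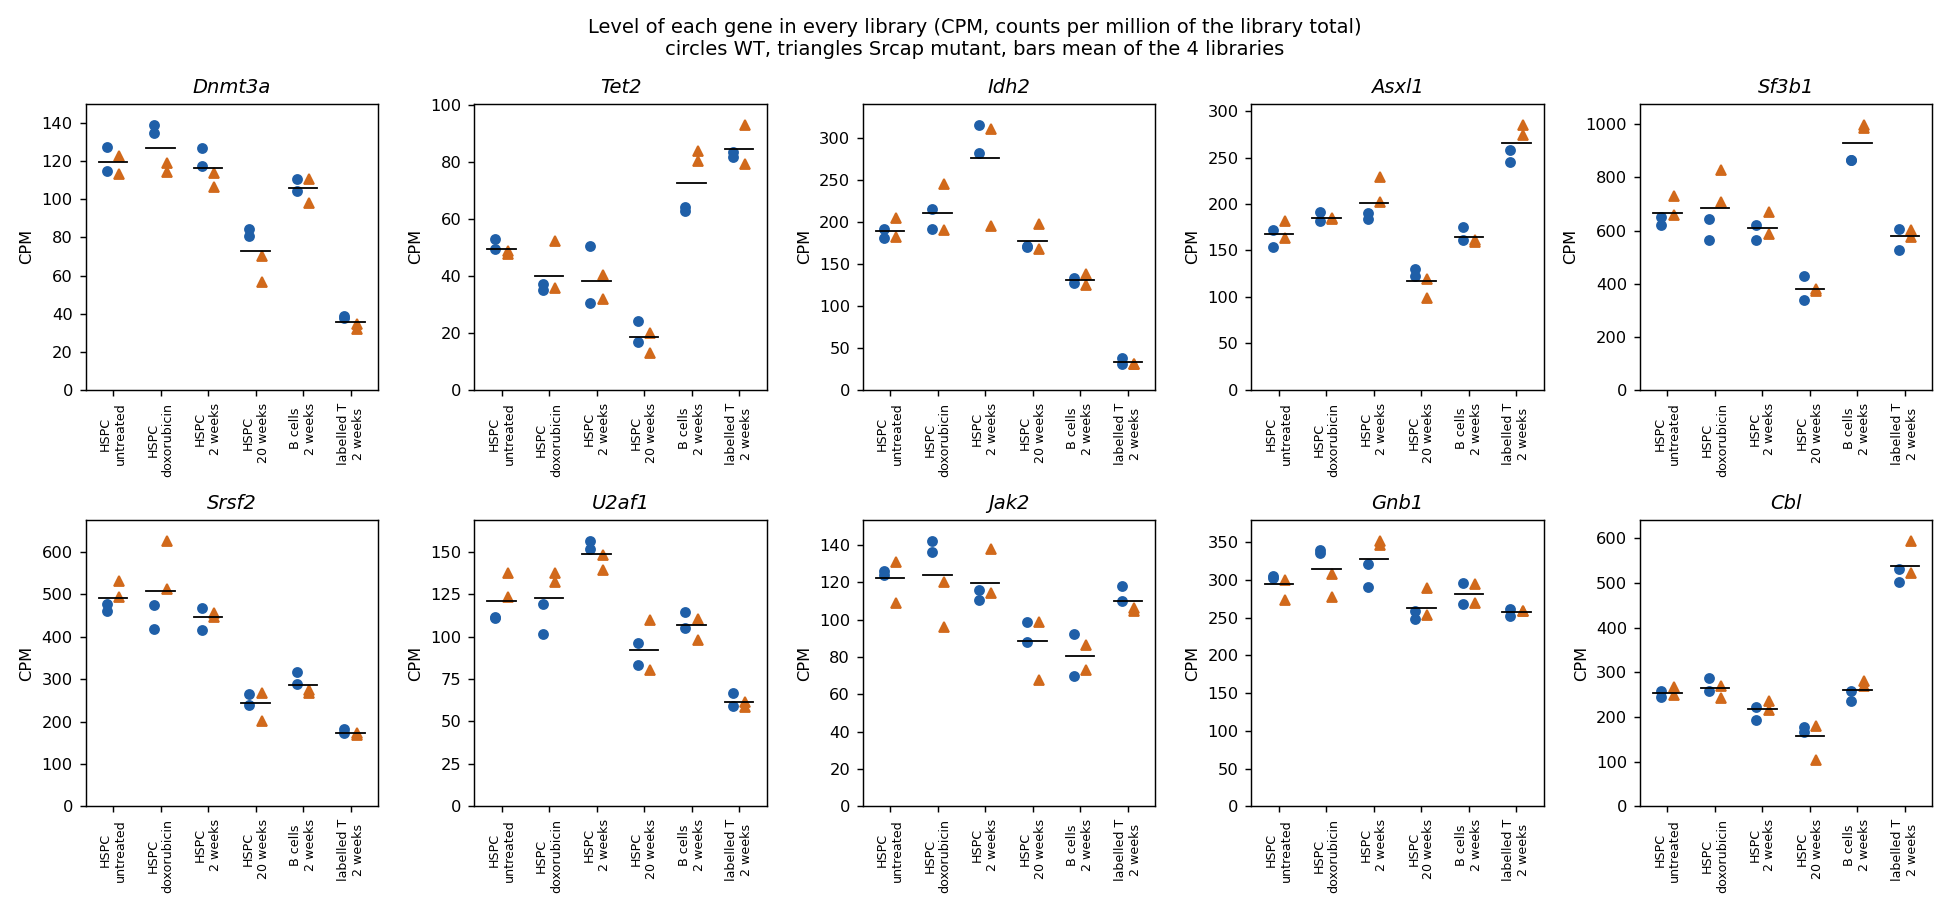
Level of the 10 genes in CPM (y axis, linear, from 0) in each of the 24 libraries, by class of cell and condition (x axis); circles are WT, triangles Srcap mutant and bars the mean of 4 libraries. Idh2 lies at 30.9 to 37.9 CPM and Cbl at 501 to 594 CPM in the libraries labelled T cells, outside all other classes, while WT and mutant symbols lie close together in most panels.

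The largest differences were between the cell labels at 2 weeks, where all 12 libraries share a directory in the file headers. B cells differed from HSPCs in 7 of the 10 genes, 3 higher and 4 lower, where 53.9% of all genes tested were called, 28.3% higher and 25.5% lower. The libraries labelled T cells differed from HSPCs in 10 of 10 genes, 6 higher and 4 lower, where 61.9% of all genes were called, 32.6% higher and 29.3% lower. B cells differed from the libraries labelled T cells in 7 of 10, 2 higher and 5 lower, where 52.9% of all genes were called, 27.0% higher and 25.9% lower. Among all genes tested the median absolute log2 change was 0.99, 1.34 and 1.01 in these 3 comparisons, against 0.42, 0.81 and 0.90 among the 10. The shares of all genes called, given above, are the background for the list counts below in the same comparisons. No list was tested as a set, so those counts are a description. In bulk RNA, fewer cells of a type and less RNA per cell cannot be told apart. The neutrophil share of the libraries labelled T cells moves with each value below that involves them, and its part in them was not tested. The part of the erythroid and neutrophil RNA of the B cell libraries in their values was not tested either.

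Scaling matters for the libraries labelled T cells. With library totals alone, an alternative added after seeing the data, the median of all genes against HSPCs moved from 0.03 to -0.79, and the count became 8 of 10, 3 higher and 5 lower. Gnb1 then reversed to -0.34 (adjusted p = 0.00147), and Jak2 (-0.12, adjusted p = 0.311) and Sf3b1 (-0.08, adjusted p = 0.425) changed sign without a call. Cbl, Tet2, Asxl1, Idh2, Dnmt3a, Srsf2 and U2af1 were called in the same direction under both scalings. For B cells against the libraries labelled T cells the median moved from 0.16 to 0.86 and the count became 8 of 10, 5 higher and 3 lower. For B cells against HSPCs the 7 calls had the same direction under both, with Asxl1 (-0.29) and Gnb1 (-0.21) called in addition, which made 3 higher and 6 lower.

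**Figure D2:**
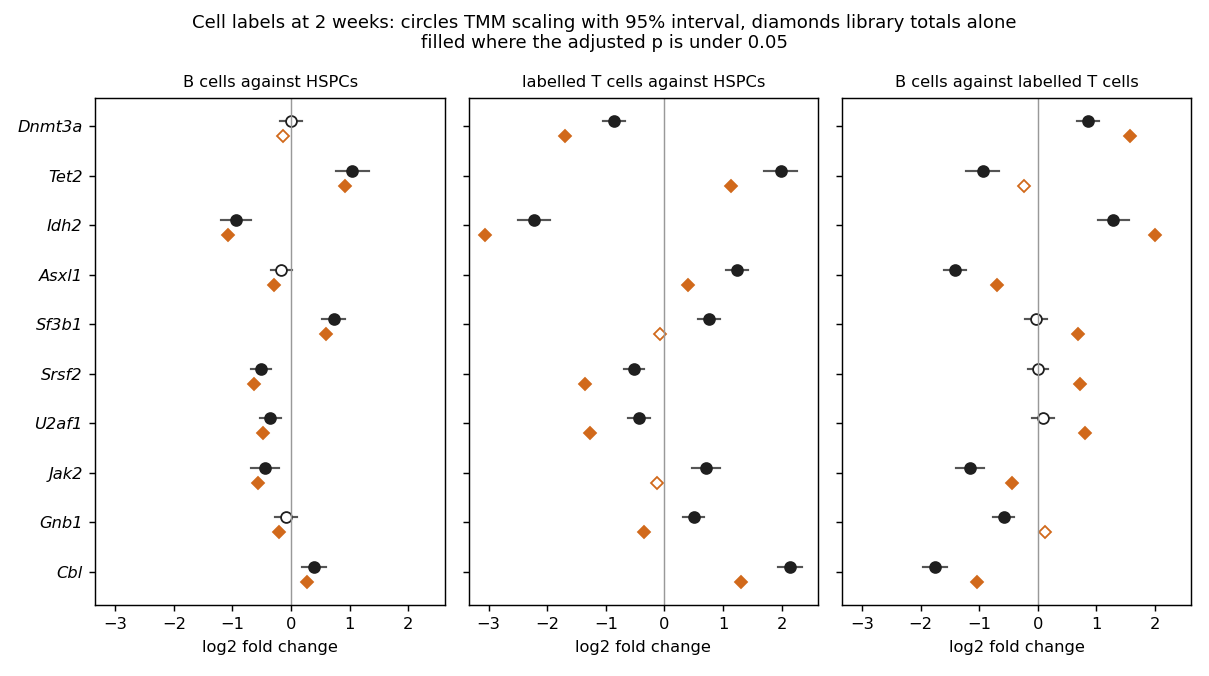
Log2 fold change (x axis) of the 10 genes (y axis) between cell labels at 2 weeks; circles with 95% intervals use TMM scaling, diamonds library totals alone, and filled symbols have an adjusted p under 0.05. Cbl and Tet2 lie to the right and Idh2 far to the left of 0 under both scalings in the libraries labelled T cells, while Gnb1, Jak2 and Sf3b1 change side.

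Idh2 (chr7:79744594-79765140, minus strand, GRCm39) showed the largest fall of the 10. HSPCs at 2 weeks carried 316 and 282 (WT) and 196 and 311 (mutant) CPM, with each pair in the order of replicates 1 and 2 here and below. B cells carried 133 and 128 (WT) and 125 and 139 (mutant) CPM, and the libraries labelled T cells 37.9 and 30.9 (WT) and 31.0 and 31.5 (mutant) CPM. The 3 classes did not overlap. Against HSPCs, Idh2 fell by 0.94 ± 0.12 in B cells on the log2 scale (edgeR adjusted p = 1.22e-05) and by 2.23 ± 0.12 in the libraries labelled T cells (adjusted p = 1.16e-09), where library totals alone gave -3.07. Idh1, the cytosolic enzyme of the same reaction, went the other way in the libraries labelled T cells: its median was 51.6 RPKM there and 19.1 RPKM in HSPCs, with a log2 change of 2.33 ± 0.10 (adjusted p = 1.08e-10) and a call in the same direction with library totals alone. Idh1 therefore stood above Idh2 per length in those 4 libraries and below it in the other 5 classes.

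Other genes of isocitrate and 2-oxoglutarate metabolism, a list of 14 besides Idh2, were mostly lower outside HSPCs. In B cells 11 of 14 were called lower and 0 higher, with a median of -0.53. Of all genes tested there, 25.5% were called lower and 28.3% higher, with a median of 0.06. The 11 included Idh3a (-1.47 ± 0.11), a subunit of the NAD-dependent isocitrate dehydrogenase, and the cytosolic aconitase gene Aco1 (-1.36 ± 0.13). The libraries labelled T cells had 8 lower and 4 higher after TMM scaling, where 29.3% of all genes were lower and 32.6% higher. With library totals alone they had 11 lower and 1 higher. Idh3a (-2.26 ± 0.12) was lower and Idh1 higher under both.

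Tet2 (chr3:133169440-133250900, minus strand) was higher in both differentiated classes. HSPCs at 2 weeks held 50.7 and 30.4 (WT) and 32.1 and 40.5 (mutant) CPM. B cells held 62.7 and 64.2 (WT) and 83.8 and 80.6 (mutant) CPM, and the libraries labelled T cells 81.9, 83.6, 79.4 and 93.1 CPM in the same order. Both classes lay above all 4 HSPC libraries and overlapped each other. Tet2 rose by 1.04 ± 0.13 in B cells (adjusted p = 1.03e-05) and by 1.98 ± 0.13 in the libraries labelled T cells (adjusted p = 8.66e-09), or 1.14 there with library totals alone. Between these 2 classes the call was lost with library totals alone (-0.94 ± 0.13 after TMM, -0.23 without, adjusted p = 0.167).

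Dnmt3a (chr12:3856007-3964443, plus strand) was not called between HSPCs and B cells and was low in the libraries labelled T cells. HSPCs at 2 weeks held 117 and 127 (WT) and 107 and 114 (mutant) CPM, and B cells 111, 104, 97.8 and 111 CPM. The difference of -0.01 had a 95% interval from -0.19 to 0.18. The libraries labelled T cells held 38.0 and 38.7 (WT) and 34.7 and 32.1 (mutant) CPM, below every other library of the series, and Dnmt3a fell there by 0.86 ± 0.09 (adjusted p = 6.98e-07), or by 1.70 with library totals alone. The ratio of Tet2 to Dnmt3a in RPKM does not depend on scaling, and was chosen after its values were seen. It lay at 0.236 to 0.427 in HSPCs at 2 weeks, 0.558 to 0.845 in B cells and 2.13 to 2.87 in the libraries labelled T cells.

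Of 10 further writers and erasers of DNA methylation, 3 were higher and 5 lower in B cells, and 2 higher and 7 lower in the libraries labelled T cells, or 1 higher and 9 lower with library totals alone. Dnmt3b, the other de novo methyltransferase, had a median of 16.1 RPKM in HSPCs, 2.43 in B cells and 0.465 in the libraries labelled T cells, changes of -2.65 ± 0.18 and -4.13 ± 0.20. Per length Dnmt3b exceeded Dnmt3a in HSPCs and Dnmt3a exceeded Dnmt3b in the other 2 classes. That order rests on the annotated exon lengths: in CPM the median of Dnmt3a was the higher in HSPCs too (116 against 82.3). The maintenance enzyme Dnmt1 was lower in both (-0.86 ± 0.11 and -0.99 ± 0.11). Tet1 fell where Tet2 rose, by 1.65 ± 0.17 in B cells and by 2.73 ± 0.18 in the libraries labelled T cells, and Tet3 (0.44 ± 0.10 in B cells) reversed in the latter from 0.46 to -0.38 between scalings.

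**Figure D3:**
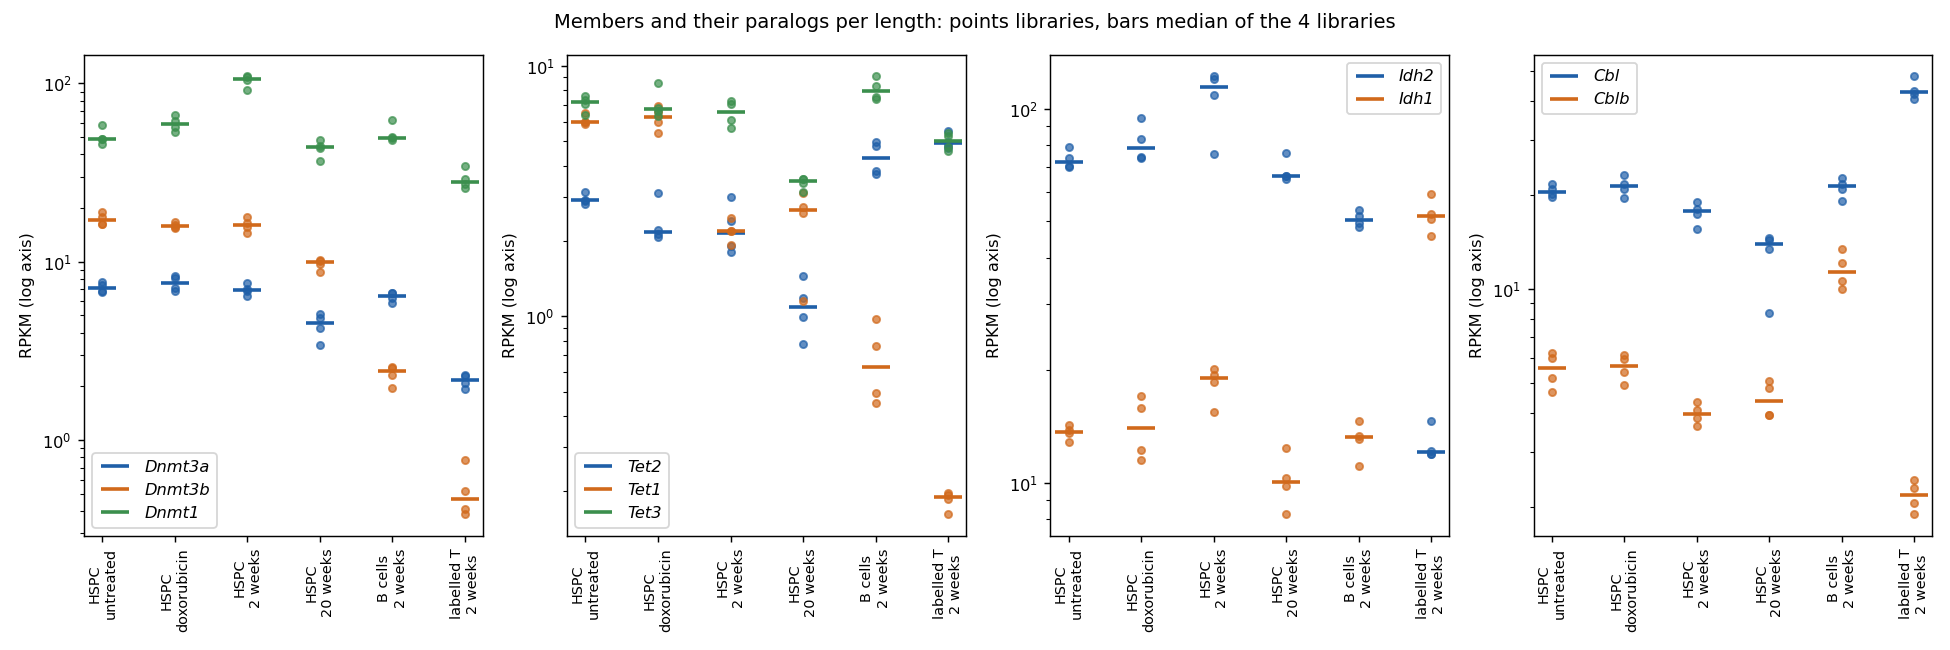
Level per length in RPKM (y axis, log scale) of Dnmt3a, Tet2, Idh2 and Cbl with their paralogs in 6 classes (x axis); points are libraries and bars the median of 4. Median Idh1 passes median Idh2 in the libraries labelled T cells (51.6 against 12.1 RPKM), and median Dnmt3b lies above median Dnmt3a in HSPCs at 2 weeks (16.1 against 6.95 RPKM) and below it in B cells (2.43 against 6.46 RPKM).

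Asxl1 (chr2:153187749-153245927, plus strand) was called higher than in HSPCs in the libraries labelled T cells. HSPCs at 2 weeks held 184 and 190 (WT) and 229 and 202 (mutant) CPM of it, B cells 175, 161, 161 and 159 CPM, and the libraries labelled T cells 245, 258, 274 and 285 CPM. The last 4 lay above all other libraries. Asxl1 rose there by 1.24 ± 0.09 (adjusted p = 1.20e-08), or 0.40 with library totals alone (adjusted p = 0.000361), while the change in B cells (-0.17 ± 0.09, adjusted p = 0.114) was not called. That change was called lower by DESeq2 (-0.21, adjusted p = 0.0284), without mutant 2-week HSPC replicate 2 (-0.22, adjusted p = 0.0289) and with library totals alone. Of 17 genes of the ASXL, BAP1 and polycomb list, 16 were tested: 9 were higher and 2 lower in B cells, and 6 higher and 6 lower in the libraries labelled T cells, or 3 and 10 with library totals alone. The H3K27 methyltransferase Ezh2 was higher in B cells (0.81 ± 0.11) and lower in the libraries labelled T cells (-0.95 ± 0.11), and its paralog Ezh1 was higher in both (0.92 ± 0.08 and 1.56 ± 0.08). Bmi1, of a polycomb repressive complex, was lower in both (-0.90 ± 0.13 and -1.91 ± 0.14). The paralog Asxl2 had a median of 6.89 RPKM in HSPCs, 9.05 in B cells and 3.69 in the libraries labelled T cells, below Asxl1 at 26.4, 21.6 and 35.7 RPKM.

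The 3 splicing factors parted from each other in B cells. After TMM scaling the libraries labelled T cells showed the same directions. Sf3b1 (chr1:55024328-55066640, minus strand), the branch point factor, stood at 867 and 864 (WT) and 998 and 985 (mutant) CPM in B cells. HSPCs held 622 and 566 (WT) and 668 and 586 (mutant) CPM. In CPM all B cell libraries lay above all others of the series. Against HSPCs, Sf3b1 rose by 0.73 ± 0.09 after TMM scaling (edgeR adjusted p = 9.40e-06). Srsf2 (chr11:116740727-116743920, minus strand) fell by 0.51 ± 0.08 in B cells (adjusted p = 7.45e-05), from 417 to 467 CPM in HSPCs to 268 to 316 CPM, and U2af1 (chr17:31866055-31877866, minus strand) by 0.35 ± 0.09 (adjusted p = 0.00321), from 139 to 156 CPM to 97.9 to 114 CPM. In the libraries labelled T cells they held 168 to 182 CPM (-0.52 ± 0.08) and 58.4 to 66.9 CPM (-0.44 ± 0.09). B cells against these libraries gave 0.01 and 0.09 after TMM scaling, not called, and 0.72 and 0.80 with library totals alone, both called. Sf3b1 there ran from 529 to 607 CPM, overlapping the HSPC libraries, and its change of 0.76 ± 0.09 did not keep its sign with library totals. For B cells against these libraries, Sf3b1 was not called after TMM scaling. Its TMM-scaled levels overlapped, at 749.2 to 871 CPM in B cells and 721.5 to 893.2 CPM in the libraries labelled T cells. Library totals alone gave 0.68, called. The genes Mettl23 and Mfsd11 overlap Srsf2 on the opposite strand with 9.87% and 4.88% of its counts, and per the file headers counting used the strand.

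Of 18 other genes of 3′ splice site recognition, 4 were higher and 9 lower in B cells, and 3 higher and 11 lower in the libraries labelled T cells, or 0 and 16 with library totals alone. Sf3b3, which sits with Sf3b1 in the U2 particle, fell by 0.88 ± 0.09 in B cells where Sf3b1 rose, and by 1.55 ± 0.09 in the libraries labelled T cells. Sf3b4 of the same particle fell by 0.93 ± 0.12 in B cells, and Sf3a3 and Sf3a1, of the U2 subunit SF3A, by 1.24 ± 0.12 and 1.11 ± 0.09 in the libraries labelled T cells. Of 16 other genes of the SR factor list, 15 were tested and 8 were higher and 2 lower in B cells. The kinases Clk1 (2.28 ± 0.12) and Clk4 (2.17 ± 0.13), which phosphorylate SR proteins, led the rise there. Among these 15 genes, the libraries labelled T cells had 4 higher and 7 lower, or 4 and 11 with library totals alone, with Srsf7 at -0.99 ± 0.11, Srsf1 at -0.84 ± 0.10 and the kinase Srpk2 at 2.22 ± 0.09.

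Cbl (chr9:44054273-44145346, minus strand) had the largest rise of the 10. HSPCs at 2 weeks held 193 and 223 (WT) and 236 and 216 (mutant) CPM, B cells 258 and 236 (WT) and 280 and 269 (mutant) CPM, and the libraries labelled T cells 531, 502, 523 and 594 CPM. The last lay above every other library of the series. B cells lay only just above HSPCs at 2 weeks, with a lowest library of 236.1 CPM against a highest of 235.6 CPM. Cbl rose by 0.39 ± 0.09 in B cells (adjusted p = 0.00263) and by 2.15 ± 0.10 in the libraries labelled T cells (adjusted p = 1.16e-10), or by 1.31 there with library totals alone. Its paralog Cblb was higher in B cells (1.65 ± 0.11), with a median of 11.4 RPKM against 3.99 RPKM in HSPCs, and held 2.18 RPKM in the libraries labelled T cells, a change of -0.03 after TMM scaling and -0.87 with library totals alone. The ratio of Cbl to Idh2 in RPKM, also chosen after its values were seen, was 0.128 to 0.252 in HSPCs at 2 weeks, 0.387 to 0.469 in B cells and 2.94 to 3.96 in the libraries labelled T cells.

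Of 20 other genes of the CBL list (family members, receptors and adaptors), 19 were tested at 2 weeks. In B cells 8 were higher and 7 lower. The libraries labelled T cells had 10 higher and 5 lower, or 6 and 9 with library totals alone. The tyrosine kinases Lyn (2.46 ± 0.09 and 3.13 ± 0.09) and Syk (3.11 ± 0.09 and 2.33 ± 0.09), which are targets of Cbl, were higher in both. Kit, the stem cell factor receptor and also a marker of the HSPC list, was lower in both (-6.08 ± 0.15 and -2.90 ± 0.13).

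Jak2 (chr19:29229228-29290480, plus strand) was lower in B cells. Its level at 2 weeks was 111 and 116 (WT) and 138 and 114 (mutant) CPM in HSPCs, and 92.5, 69.7, 86.5 and 73.2 CPM in B cells, below all 4 HSPC libraries. The fall was 0.45 ± 0.11 (adjusted p = 0.00366). In the libraries labelled T cells it held 110, 118, 107 and 105 CPM, overlapping HSPCs, and the change of 0.71 ± 0.11 did not keep its sign with library totals. Of 24 other genes of JAK-STAT signalling, 9 were higher and 8 lower in B cells, and 17 higher and 6 lower in the libraries labelled T cells, or 11 and 6 with library totals alone. The receptor genes Csf3r (5.33 ± 0.31) and Csf2ra (4.57 ± 0.27) and the inhibitor Socs3 (4.79 ± 0.24) were higher in the libraries labelled T cells. Il7r, the interleukin-7 receptor of early lymphocytes, was higher in B cells (2.94 ± 0.14), and the transcription factor gene Stat5a was lower (-1.54 ± 0.09).

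Gnb1 (chr4:155575818-155643726, plus strand) varied least of the 10 in CPM on library totals, with a highest level 1.42 times its lowest over 24 libraries, against 10.2 times for Idh2, 7.13 times for Tet2 and 5.73 times for Cbl. After TMM scaling it varied least among the 16 HSPC libraries (1.42 times), but over the 12 libraries at 2 weeks U2af1 (1.57 times) and Srsf2 (1.58 times) varied less than Gnb1 (1.69 times). It ran from 291 to 351 CPM in HSPCs at 2 weeks, from 268 to 297 CPM in B cells and from 252 to 261 CPM in the libraries labelled T cells. The change in B cells was not called (-0.09 ± 0.08, adjusted p = 0.411), and in the libraries labelled T cells the sign of the called change depended on the scaling (0.50 ± 0.09 after TMM, -0.34 with library totals). Of 21 other G protein subunit genes, 19 were tested: 4 were higher and 8 lower in B cells, and 10 higher and 3 lower in the libraries labelled T cells, or 7 and 7 with library totals alone. The paralog Gnb4 was lower in both (-2.20 ± 0.23 and -3.41 ± 0.25), and Gnb2 was higher in the libraries labelled T cells (1.54 ± 0.15). Gnai2, the inhibitory alpha subunit, rose there by 2.27 ± 0.11.

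Among HSPC conditions, doxorubicin moved none of the 10 past the threshold. edgeR called 0 of 10 against untreated HSPCs, where 0.0154% of all genes were called, and 0 had an unadjusted p under 0.05. DESeq2 also called 0. The changes ran from -0.30 for Tet2 (95% interval -0.66 to 0.07) to 0.17 for Idh2 (-0.09 to 0.44).

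At 2 weeks after transplantation 3 of 10 genes were higher than in untreated HSPCs and 0 lower, where 46.1% of all genes were called, 21.2% higher and 24.9% lower, so the share among the 10 was not above that background. Idh2 rose by 0.62 ± 0.13 (adjusted p = 0.000540), from 181 and 191 (WT) and 182 and 205 (mutant) CPM to the values above. The lowest 2-week library, mutant replicate 1 at 196 CPM, lay within the untreated range. U2af1 rose by 0.39 ± 0.10 (adjusted p = 0.00407), from 111 to 138 CPM to 139 to 156 CPM, without overlap, and Asxl1 by 0.35 ± 0.11 (adjusted p = 0.0109), from 154 to 182 CPM to 184 to 229 CPM. The Asxl1 call was lost without WT untreated replicate 2, mutant untreated replicate 1, WT 2-week replicate 2 or mutant 2-week replicate 1 (adjusted p from 0.0559 to 0.0870) and without the count filter (0.0563). Gnb1 was called higher in addition by DESeq2 (0.22, adjusted p = 0.0236) and in a fit of the compared groups alone (0.24, adjusted p = 0.0495). All 2-week libraries come from another header directory than the untreated ones and carry Xist RNA where those carry Ddx3y, so time, directory and sex cannot be told apart here. Marker shares moved as well: HSPC markers took 0.0925% to 0.126% of the counts at 2 weeks against 0.214% to 0.285% untreated, and erythroid markers 0.0905% to 0.151% against 0.00311% to 0.0237%. Neutrophil markers took 0.548% to 0.945%, against a median of 0.0455% and a highest share of 2.36% untreated. That share includes Mpo, a myeloid granule enzyme of the same list, at 2206 to 5257 CPM against 123 to 168 CPM untreated. Megakaryocyte markers took 0.00930% to 0.0242%, against 0.00204% to 0.00294%. Their part in these values was not tested.

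Lists of related genes at 2 weeks are described beside these 3, where 21.2% of all genes were called higher and 24.9% lower. Of the 14 genes of isocitrate and 2-oxoglutarate metabolism 12 were higher and 0 lower, such as Cs (1.34 ± 0.11) and Dlst of the 2-oxoglutarate dehydrogenase (1.22 ± 0.10). Of the 18 genes of 3′ splice site recognition 12 were higher and 1 lower, with Sf3b5 at 1.29 ± 0.14, Prpf8 at 1.04 ± 0.14 and Luc7l2 at -0.66 ± 0.12. Of the 16 SR factor genes 3 were higher and 10 lower, with Clk1 at -1.21 ± 0.20 and Clk4 at -1.28 ± 0.20. Dnmt1 rose by 1.12 ± 0.13 and Tet1 fell by 1.38 ± 0.19, while Dnmt3a (0.05 ± 0.11) and Tet2 (-0.29 ± 0.17) were not called. Library totals alone gave the same counts for these 3 lists.

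At 20 weeks after competitive transplantation 4 of 10 genes were lower than in untreated HSPCs and 0 higher, where 23.6% of all genes were called, 13.1% higher and 10.6% lower. Tet2 fell by 1.07 ± 0.17 (adjusted p = 0.000326). Untreated HSPCs held 49.4 and 52.9 (WT) and 48.9 and 47.6 (mutant) CPM, and those at 20 weeks 24.4 and 16.8 (WT) and 13.1 and 20.0 (mutant) CPM, without overlap. Srsf2 fell by 0.66 ± 0.10 (adjusted p = 0.000208), from 461, 478, 494 and 532 CPM to 265, 239, 267 and 202 CPM, and Sf3b1 by 0.45 ± 0.10 (adjusted p = 0.00362), from 651, 621, 658 and 729 CPM to 428, 338, 381 and 374 CPM. Dnmt3a fell by 0.36 ± 0.11 (adjusted p = 0.0226), from 115, 127, 123 and 113 CPM to 80.6, 84.6, 56.7 and 70.3 CPM. Its call was lost without WT untreated replicate 2, mutant untreated replicate 1, WT 20-week replicate 1 or mutant 20-week replicate 1 (adjusted p from 0.0892 to 0.103).

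Immunoglobulin RNA rose to 16.9% to 26.7% of the counts in the same 20-week libraries. With immunoglobulin genes and Jchain left out, the same 4 genes were called. That setting drops only those genes and leaves all other RNA in place, so it cannot show the part of plasma cells. Other plasma cell markers were higher too, with median Xbp1 at 519 CPM against 243 CPM untreated and median Sdc1 at 126 against 72.2 CPM. Their part in the falls was not tested. With library totals alone the median of all genes moved from 0.02 to -0.33 and 8 of 10 were called lower, with Cbl (-0.71), Asxl1 (-0.51), Jak2 (-0.47) and U2af1 (-0.38) in addition, while Idh2 (-0.10) and Gnb1 (-0.17), at 0.26 and 0.19 after TMM, changed sign without a call. The untreated and 20-week libraries come from different header directories, so time and directory cannot be told apart. SR factor genes were lower too, 11 of 16 with 1 higher, such as Clk4 (-1.09 ± 0.20) and Srsf5 (-1.07 ± 0.12), or 14 and 0 with library totals. Of all genes, 10.6% were called lower and 13.1% higher after TMM scaling. Of 10 genes of DNA methylation 5 were lower and 0 higher, among them Tet1 (-1.01 ± 0.19), Tet3 (-0.69 ± 0.11) and Dnmt3b (-0.47 ± 0.10), so that all 3 TET genes were lower.

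**Figure D4:**
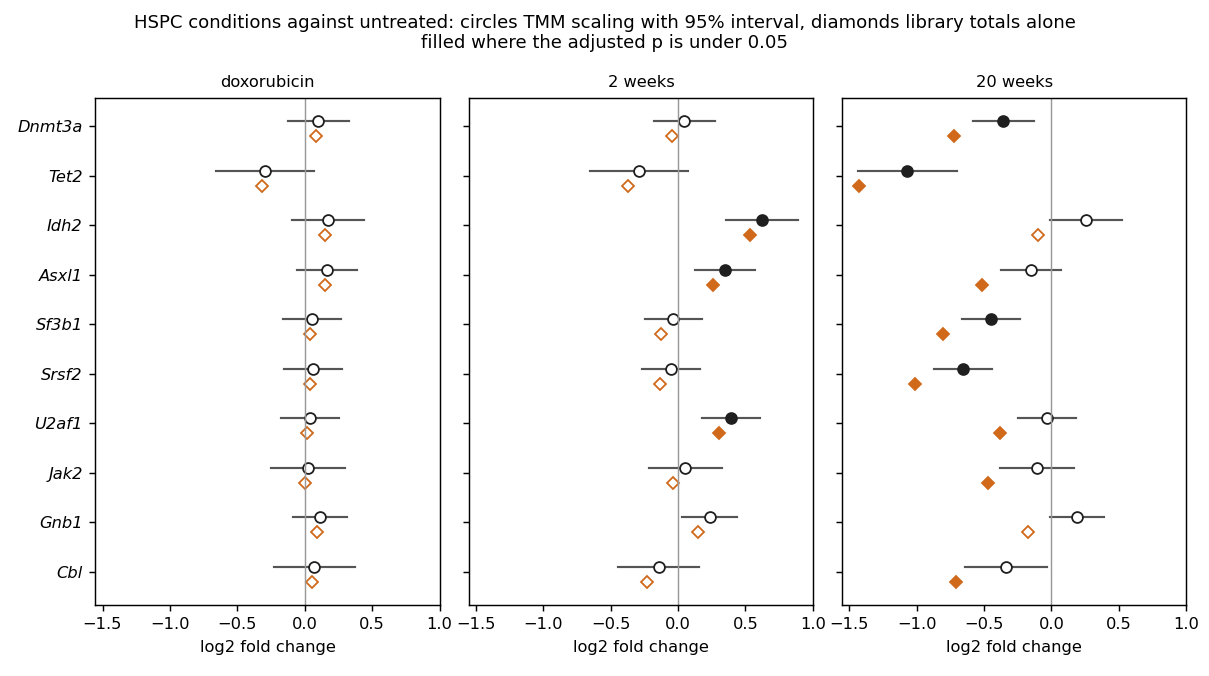
Log2 fold change (x axis) of the 10 genes (y axis) in HSPCs of each condition against untreated HSPCs, as the mean over genotypes; circles with 95% intervals use TMM scaling, diamonds library totals alone, and filled symbols have an adjusted p under 0.05. No symbol is filled after doxorubicin, and Tet2 lies farthest from 0 at 20 weeks (-1.07).

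Between Srcap mutant and WT none of the 10 genes was called. edgeR called 0 of 10 in untreated HSPCs (0% of all genes called), after doxorubicin (0.0154%), at 2 weeks (0.138%), at 20 weeks (0.00512%), in the mean over the 4 HSPC conditions (0.133%), in B cells (0.641%) and in the libraries labelled T cells (0.0114%). DESeq2 also called 0 of 10 in each. Changes within the classes ran from -0.42 to 0.37. The lowest and highest bounds of their 95% intervals were -0.84 and 0.74, both for Tet2 in HSPCs, where it was the least precise of the 10. The median over the 10 was 0.02 in untreated HSPCs, -0.02 after doxorubicin, 0.09 at 2 weeks, -0.17 at 20 weeks, -0.02 in B cells and 0.04 in the libraries labelled T cells, where the medians of all genes lay between -0.02 and 0.02. An unadjusted p under 0.05 was reached by 0, 1, 0, 1, 1 and 1 of the 10 in these classes, where 4.82%, 9.79%, 8.76%, 3.80%, 11.0% and 5.72% of all genes reached it, and by 1 in the mean over HSPC conditions (9.88% of all genes). The 4 of 60 values by class, 6.67%, were not above the 7.28% of all genes in the 6 classes together. On TMM-scaled CPM the mutant libraries did not overlap the WT libraries for 4 of the 10 genes in untreated HSPCs (38.6% of all genes), 8 after doxorubicin (46.1%), 3 at 2 weeks (32.3%), 2 at 20 weeks (26.8%), 4 in B cells (41%) and 4 in the libraries labelled T cells (37%). Together this was 25 of 60, or 41.7%, beside 36.9% of all genes.

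Those 5 values do not pass the correction and are given as a description. Tet2 in B cells was 0.37 ± 0.11 (edgeR adjusted p = 0.185), with 62.7 and 64.2 CPM in WT below 83.8 and 80.6 CPM in mutants. Dnmt3a at 20 weeks was -0.41 ± 0.15 (adjusted p = 1), with 80.6 and 84.6 CPM in WT above 56.7 and 70.3 CPM in mutants. Its mean over the 4 HSPC conditions was -0.22 ± 0.08 (adjusted p = 0.305), with a negative change in 4 of 4 conditions. The mean is taken over these same 4 changes, so their shared sign adds nothing to it. Jak2 after doxorubicin was -0.42 ± 0.18 (adjusted p = 0.468), with 142 and 136 CPM in WT above 96.3 and 121 CPM in mutants. Asxl1 in the libraries labelled T cells was 0.22 ± 0.10 (adjusted p = 0.835), with 245 and 258 CPM in WT below 274 and 285 CPM in mutants.

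**Figure D5:**
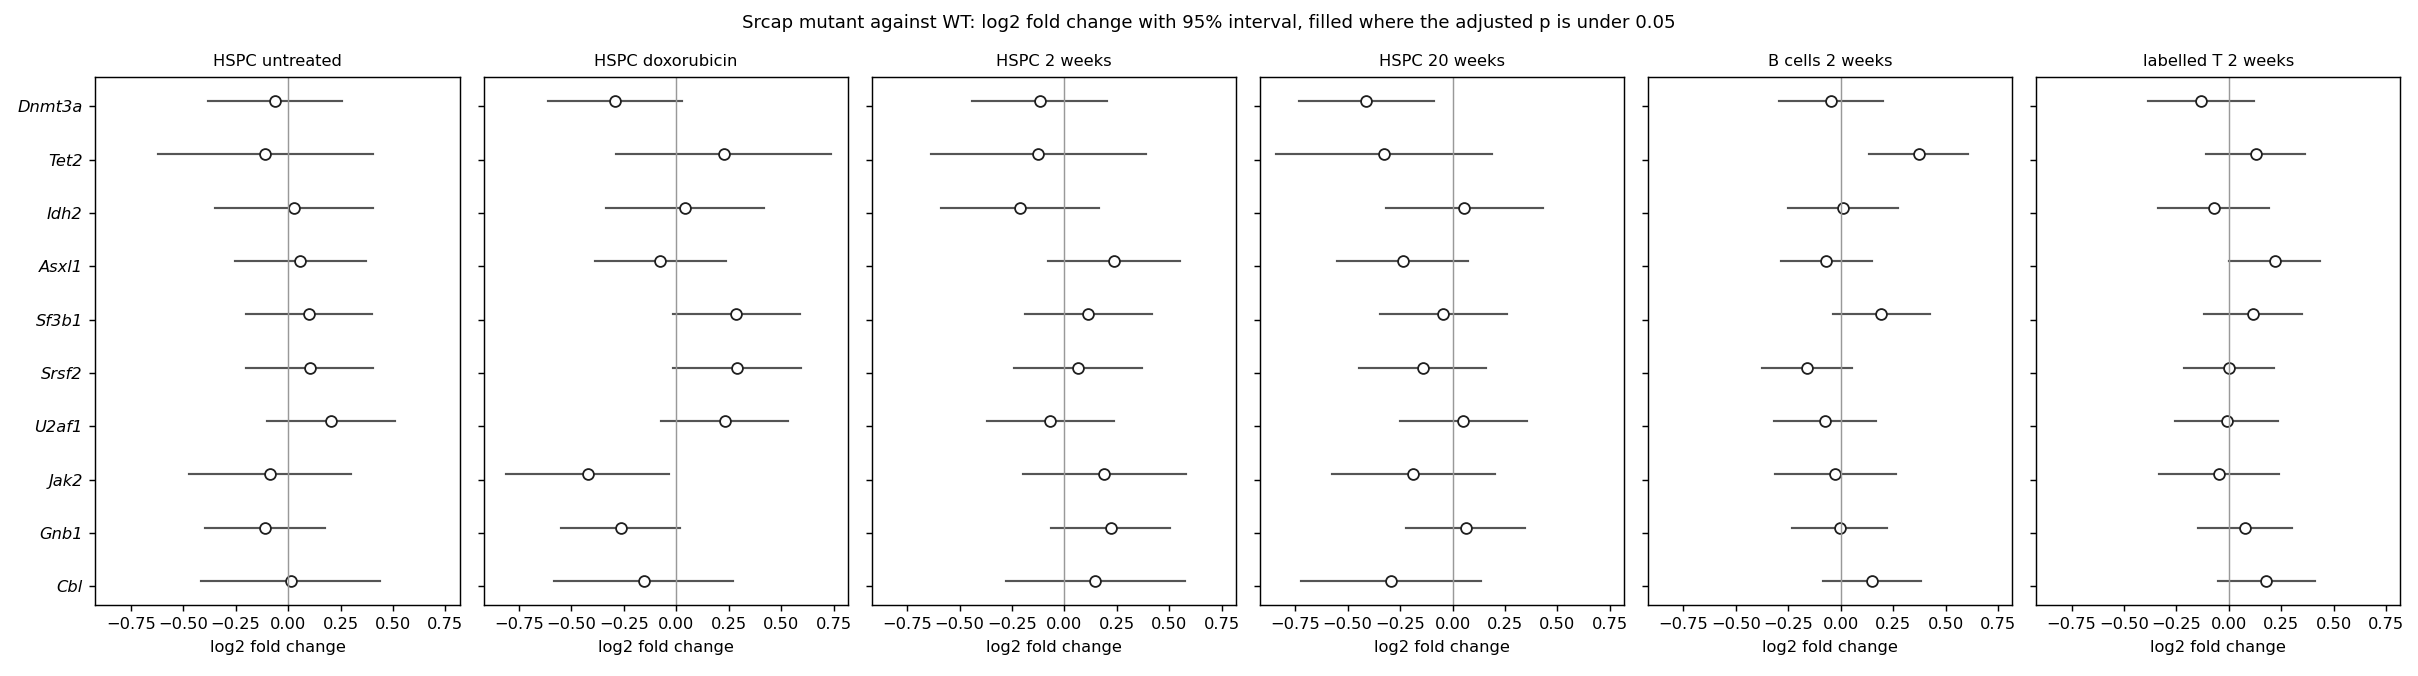
Log2 fold change of Srcap mutant against WT (x axis, with 95% intervals) for the 10 genes (y axis) in 6 classes of cell and condition. All circles are open, none of the 60 having an adjusted p under 0.05, and 4 intervals lie off 0: Jak2 after doxorubicin, Dnmt3a at 20 weeks, Tet2 in B cells and Asxl1 in the libraries labelled T cells.

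Mutant replicate 1 was the lowest library at 20 weeks for Cbl (104 CPM, against 178, 166 and 180), Tet2 (13.1), Dnmt3a (56.7), Asxl1 (99.0, against 130, 123 and 119) and Jak2 (67.7, against 98.8, 88.3 and 99.0), and for Srcap (2.83 against 6.11 to 7.92). The same library was the highest for Srsf2 (267), U2af1 (110, against 96.1, 83.0 and 80.3), Idh2 (197, against 171, 171 and 168) and Gnb1 (290, against 258, 248 and 253). Without mutant 20-week replicate 2, so that replicate 1 alone stood for the mutants, Cbl was called at -0.82 ± 0.17 (adjusted p = 0.0169) and the count was 1 of 10. Without replicate 1 the Cbl value was 0.09 ± 0.16.

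The test of whether the mutant effect differs between conditions or cell labels also called none. In HSPCs, 0 of 10 passed for doxorubicin, 2 weeks and 20 weeks, each minus untreated, where 0% of all genes did in each. At 2 weeks, 0 of 10 passed for B cells minus HSPCs (0.0158% of all genes) and for the libraries labelled T cells minus HSPCs (0.0105%). These 5 differences ran from -0.35 to 0.55, with no unadjusted p under 0.05 among the 10, and DESeq2 called 0 of 10 in each. Among the other genes of the 9 lists 2 calls were made between genotypes, 1 of 164 genes (0.61%) in HSPCs at 2 weeks, where 0.138% of all genes were called, and 1 of 160 (0.625%) in B cells, where 0.641% were. The share in B cells was not above that background, and a single call says nothing about the lists. The genes were Gng11, a G protein gamma subunit, in HSPCs at 2 weeks (-1.54 ± 0.29, adjusted p = 0.0396) and Csf2rb, the common beta chain of cytokine receptors, in B cells (-0.64 ± 0.10, adjusted p = 0.0161). The Gng11 call was lost with library totals alone (adjusted p = 0.0628). The myeloid markers Ly6c2 (-1.06 ± 0.17) and Cd68 (-0.57 ± 0.12) were also called lower in mutant B cell libraries, and their part in the Csf2rb value was not tested.

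Across all 24 libraries, genes with at least a mean log2 CPM of 3 were ranked by Pearson's r of log2(CPM + 1) with each of the 10, as a description over 9610 genes that share libraries, depth and cell classes. The nearest were Phgdh (0.99) to Idh2, Fnbp4 (0.985) to Sf3b1, Hp1bp3 (0.977) to Srsf2, Braf (0.976) to Cbl and Sephs1 (0.974) to Dnmt3a. For U2af1 it was Ldb1 (0.969), for Tet2 Stx17 (0.964), for Asxl1 Map2k4 (0.948), for Jak2 Xpr1 (0.886) and for Gnb1 Anp32a (0.877). Among the 45 pairs of the 10 genes r was highest for U2af1 with Idh2 (0.90) and lowest for Idh2 with Cbl (-0.81).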

How the data were processed

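The authors deposited raw counts per gene, made with featureCounts 2.0.1 on the reverse strand against GENCODE M28 per the file headers, with GRCm39 coordinates. STAR, FastQC and Subread, and both the mm39 and mm10 builds, are named per the submitters' processing notes, without versions. Symbols came from GENCODE M21 and matched 52081 of 55414 IDs, holding 99.85% of counts. CPM and RPKM were computed from the counts, library totals and the deposited exon length.

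Counts were tested with edgeR 4.0.16 (quasi-likelihood, robust, TMM, filterByExpr with a minimum count of 10) in 3 fits: 16 HSPC libraries (19522 genes), 8 libraries labelled B or T cells (17484) and 12 libraries at 2 weeks (19018). Values of p were Benjamini-Hochberg adjusted over all genes of a fit. The code was tested on simulated data. Alternatives were DESeq2 1.42.0, RLE factors, no filter, a replicate block, compared groups alone, no immunoglobulin genes, each library left out and, added after seeing the data, library totals alone. List genes named are the called ones with the largest changes, at most 3 per direction, with paralogs of the 10 besides; some genes that this rule names are not reported here. The 10 genes, the lists and the markers were chosen with earlier results of these data known. Depth differs by library, and genes with few counts are less precise.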

Additional observations from a re-analysis of the deposited data

Results flagged for a closer look

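For 5 of the 10 genes the mutant libraries lay above both WT libraries in one class and below both in another, on TMM-scaled CPM. The share of all genes that do so was not computed, so these 5 are a description and not a trait of the 10 genes. Over all 10 genes and 6 classes, 25 of 60 pairs did not overlap, 13 with the mutant higher and 12 lower, where 36.9% of all gene and class pairs did not overlap, from 26.8% at 20 weeks to 46.1% after doxorubicin. The count is read as no more than a description. edgeR called 0 of the 60, where it called 0% to 0.641% of all genes. Tet2 was higher in mutant B cells (0.37) and lower in mutant untreated HSPCs (-0.11). Asxl1 was higher in HSPCs at 2 weeks (0.24) and in the libraries labelled T cells (0.22), and lower after doxorubicin (-0.08) and at 20 weeks (-0.24). Gnb1 was higher in HSPCs at 2 weeks (0.22) and in the libraries labelled T cells (0.08), and lower after doxorubicin (-0.27) and in untreated HSPCs (-0.11). Cbl was higher in B cells (0.15) and in the libraries labelled T cells (0.18), and lower after doxorubicin (-0.16). Srsf2 was higher after doxorubicin (0.29) and in untreated HSPCs (0.10), and lower in B cells (-0.16). Where such a pair is a condition against untreated HSPCs, or a cell label against HSPCs at 2 weeks, the difference of the mutant effects was tested and not called (smallest adjusted p of the 10 genes 0.688, edgeR). The other pairs of classes were not tested.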

How the results depend on the processing

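The number of the 10 genes called stayed within 1.5 times its main value in all 18 comparisons and alternatives, with 2 exceptions. At 20 weeks against untreated HSPCs library totals alone gave 8, and between genotypes at 20 weeks the leave-outs gave 0 to 1. The other leave-out counts ran from 2 to 4 at 2 weeks, 3 to 5 at 20 weeks, 7 to 8 for B cells against HSPCs, and stayed at 10 and 7 for the libraries labelled T cells against HSPCs and B cells against them. Cbl was called at 20 weeks (-0.61, adjusted p = 0.000360) without mutant 20-week replicate 2, and Tet2 at 2 weeks (-0.49, adjusted p = 0.0376) without WT 2-week replicate 1.

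Library totals alone reversed Dnmt3a (-0.0414) and Jak2 (-0.0342) at 2 weeks, Idh2 (-0.10) and Gnb1 (-0.17) at 20 weeks, Jak2 (-0.12), Sf3b1 (-0.0789) and Gnb1 (-0.34) in the libraries labelled T cells against HSPCs, and Sf3b1 (0.68) and Gnb1 (0.13) in B cells against them. Dnmt3a in B cells against HSPCs turned to 0.0018 without the count filter and 0.0023 without immunoglobulin genes, which also turned Sf3b1 in B cells against the libraries labelled T cells (0.0664). Leaving out 1 library moved values near 0 across it: after doxorubicin Jak2 (-0.0532 to 0.0928), Srsf2 (-0.0076 to 0.12) and U2af1 (-0.0210 to 0.0899); at 2 weeks Dnmt3a (-0.0047 to 0.0836), Jak2 (-0.0645 to 0.13) and Sf3b1 (-0.13 to 0.0226); at 20 weeks Jak2 (-0.30 to 0.0355) and U2af1 (-0.12 to 0.0453). The same held for Dnmt3a in B cells against HSPCs (-0.0643 to 0.0409), for Sf3b1 (-0.0797 to 0.0241) and Srsf2 (-0.0272 to 0.0475) in B cells against the libraries labelled T cells, and for Cbl between genotypes at 20 weeks (-0.82 to 0.0916). The causes were not tested.

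Counts over all genes depended more on the settings. Between genotypes in untreated HSPCs, after doxorubicin, at 2 weeks, at 20 weeks, in the HSPC mean, in B cells and in the libraries labelled T cells edgeR called 0, 3, 27, 1, 26, 112 and 2 genes, DESeq2 152, 282, 261, 20, 324, 337 and 24, and edgeR with no count filter 467, 474, 399, 149, 618, 590 and 145. For doxorubicin against untreated these were 3, 99 and 421. For the differences of mutant effects (doxorubicin, 2 weeks, 20 weeks, B cells, libraries labelled T cells) they were 0, 0, 0, 3 and 2, then 5, 133, 21, 110 and 85, then 337, 468, 375, 433 and 326. Compared groups alone gave 256 after doxorubicin, 2 at 2 weeks, 4 at 20 weeks, 3 in B cells, 0 in the libraries labelled T cells, 19 for doxorubicin against untreated and 1 for each of the doxorubicin and 2-week differences. Without immunoglobulin genes there were 7 after doxorubicin and 0 for both cell label differences, library totals gave 17 for the HSPC mean, and RLE factors 1 in the libraries labelled T cells.

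The replicate block changed no count of the 10 genes, which stayed at 3 at 2 weeks, 4 at 20 weeks, 7, 10 and 7 between cell labels and 0 elsewhere. Over all genes the block gave 16 at 2 weeks, 2 at 20 weeks, 13 in the HSPC mean, 284 in B cells and 101 in the libraries labelled T cells between genotypes. Libraries with the same title number, which the block used, deviated together with correlations from -0.215 to 0.304. In some groups title number 2 is number 3 in the file headers, so these correlations cannot settle whether libraries are paired. The numbers were not taken as pairs.

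With 2 libraries in a group the precision of genotype changes is limited, and a left-out library leaves 1 whose spread is assumed to be that of the other groups.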

Other observations

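Of 37 further clonal hematopoiesis genes, such as Runx1, Gata2, Ezh2 and Ppm1d, 11 were higher and 18 lower in B cells than in HSPCs at 2 weeks, and 10 higher and 19 lower in the libraries labelled T cells, or 2 and 31 with library totals alone. Of all genes tested, 28.3% were higher and 25.5% lower in B cells, and 32.6% and 29.3% in the libraries labelled T cells after TMM scaling. Zfp318 (1.42 ± 0.18), Ezh2 (0.81 ± 0.11) and Ppm1d (0.63 ± 0.12), a phosphatase of the p53 response, were higher in B cells. Gata2, a transcription factor of stem and progenitor cells, was lower in B cells (-5.07 ± 0.26) and in the libraries labelled T cells (-3.35 ± 0.24). At 20 weeks against untreated HSPCs 4 of the 37 were higher and 12 lower, or 1 and 25 with library totals alone, with the receptor gene Flt3 (-0.81 ± 0.12) and Runx1 (-0.62 ± 0.10), a hematopoietic transcription factor, lower and Gata2 (1.10 ± 0.15) higher. In that comparison 13.1% of all genes were higher and 10.6% lower after TMM scaling. At 2 weeks against untreated HSPCs 12 of the 37 were higher and 10 lower, where 21.2% of all genes were higher and 24.9% lower. Cebpa (1.44 ± 0.18) and Gata2 (1.27 ± 0.15) were higher and Flt3 (-1.67 ± 0.12) lower. None of the 37 was called between genotypes.

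In CPM the ranges of all neighbouring classes of Gnb1 overlapped, from a mean of 327 CPM in HSPCs at 2 weeks to 258 CPM in the libraries labelled T cells. U2af1 and Idh2 had their highest class mean in HSPCs at 2 weeks (149 and 276 CPM) and their lowest in the libraries labelled T cells (61.4 and 32.8 CPM).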
